A study of Sus scrofa with 6 samples.

Results

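OGT, OGA and the enzymes of the hexosamine pathway were examined in IPEC-J2, a cell line of pig jejunal epithelium. The 7 genes were taken by name from the deposited expression table: the O-GlcNAc transferase OGT, the O-GlcNAcase OGA, and the pathway enzymes GFPT1, GFPT2, GNPNAT1, PGM3 and UAP1. They matched 7 of the 31908 gene IDs and 27 of the 63041 rows of the table. OGA had 7 rows, OGT 6, GFPT1 4, PGM3 and UAP1 3 each, and GFPT2 and GNPNAT1 2 each. A gene with several rows has several listed transcripts, but no transcript IDs are given, so rows are numbered here by their mean level within a gene. Gene values are the sum of these rows.

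The study compared 3 libraries from cells given PBS (CON) with 3 from cells treated with 50 μM chenodeoxycholic acid (CDCA), a primary bile acid, each for 24 h. All cells were of this single line and carried no other treatment. The study speaks of biological replicates, but the labels do not say whether those of a group were separate cultures. The p-values measure the spread between these libraries, which may in part be technical.

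The hexosamine pathway turns the sugar phosphate fructose-6-phosphate, together with glutamine and acetyl-CoA, into UDP-GlcNAc. This nucleotide sugar supplies GlcNAc to N-glycans, glycosaminoglycans and mucin-type glycans. It is also the donor for O-GlcNAc, a single sugar that OGT places on serines and threonines of nuclear and cytosolic proteins and that OGA takes off again. In many cell types OGT and OGA transcripts respond to the level of the mark itself.

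Values are in TPM, a unit corrected for transcript length and scaled to 1000000 per library, so levels may be set beside each other between genes. Read numbers per gene were not listed, so intervals for counting error could not be made. The rows listed held only 351770 to 366073 TPM of a library, and some genes that most cells use were listed at or near 0. A low value therefore says only what the listed rows hold. Among epithelial markers, EPCAM, KRT8, KRT18 and CLDN4 were well expressed, whereas CDH1, CLDN7 and VIL1 had means under 1 TPM. The summed level of the 7 epithelial markers found was 624 to 648 TPM in CON and 1182 to 1322 TPM in CDCA, and most of this difference was in CLDN4. Its part in the results was not tested. The 6 fibroblast markers summed to 1.00 to 1.83 TPM over all libraries with LUM at 0, the 5 immune markers to 1.26 to 2.54 TPM, and the 3 endothelial markers found to 1.87 to 2.69 TPM.

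The 7 genes together held 97.0 to 107.1 TPM in the CON libraries and 149.6 to 161.0 TPM in the CDCA libraries. The mean summed level was 102.6 ± 5.2 TPM (SD, n = 3) with PBS and 155.1 ± 5.7 TPM (SD, n = 3) with CDCA. In such bulk samples, a change in the number of cells of a kind and a change of RNA per cell cannot be told apart. Of the mean difference of 52.5 TPM, OGT made up 17.9 TPM and UAP1 17.6 TPM. PGM3 added 6.72 TPM, GFPT1 5.38 TPM and GNPNAT1 4.71 TPM. OGT went from 3.16% to 13.6% of the summed level, while UAP1 stayed at about the same share, 32.3% and 32.7%.

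**Figure D1:**
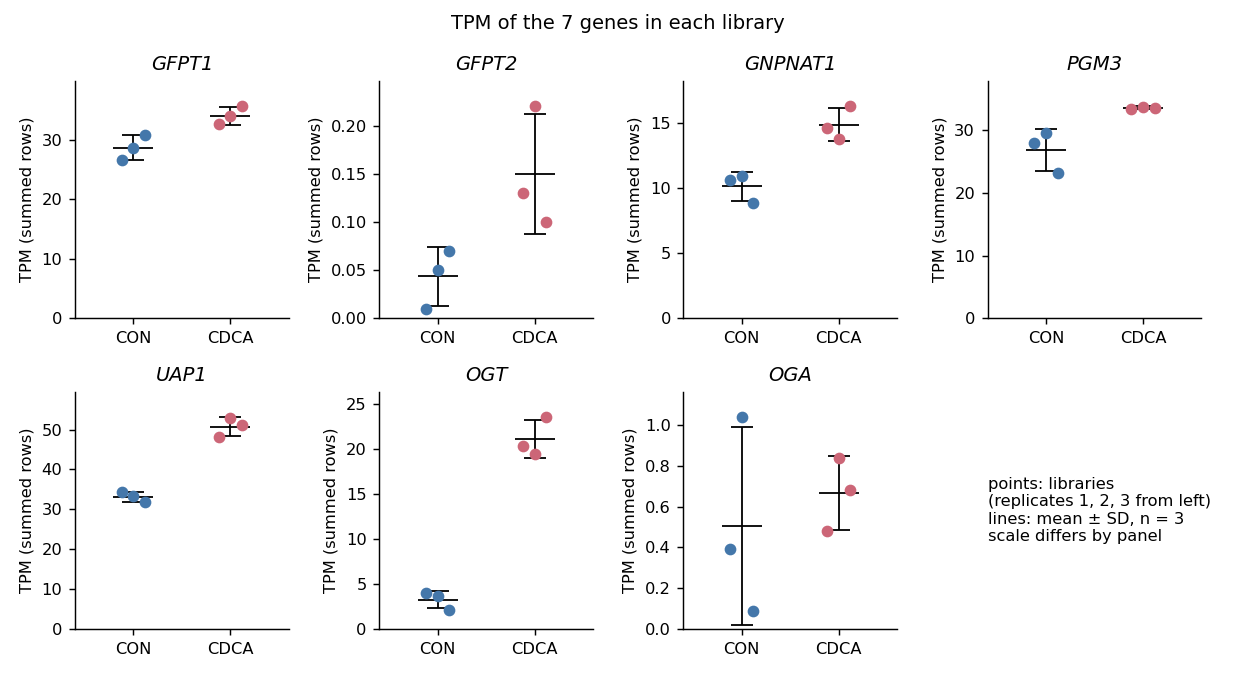
TPM of each of the 7 genes (y axis, rows summed, linear scale that differs by panel) in the 3 CON and the 3 CDCA libraries (x axis); points are libraries, and lines give the mean ± SD (n = 3). The CDCA libraries lie above the CON libraries in each panel except that of OGA, as they do in 33.7% of all tested genes. GFPT2, at or below 0.22 TPM, was not among the tested genes. The CON libraries of OGA span 0.09 to 1.04 TPM around the CDCA values.

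The differences were tested by limma on log2(TPM + 1) for the 8708 genes whose mean over the 6 libraries reached 1 TPM. Adjusted p-values (FDR) are by the Benjamini-Hochberg method over all of these genes. A call required an FDR under 0.05 together with a log2 fold change above 1 or below -1. Fold changes on this scale understate those of weakly expressed genes. Of the 7 genes, 5 reached 1 TPM and were tested, and OGA and GFPT2 did not. Of the 5, only OGT was called higher, against 3.51% of all tested genes. All 5 had an FDR under 0.05 and rose, against 29.3% of all tested genes, and none fell with an FDR under 0.05, against 23.9%. In each of the 5, every CDCA library lay above every CON library, which held for 33.7% of all tested genes. The median log2 fold change of the 5 was 0.51, compared with 0.05 for all tested genes (quartiles -0.28 and 0.36).

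The first and rate-limiting step, in which fructose-6-phosphate takes an amino group from glutamine, is carried out by GFPT1 or its isoenzyme GFPT2. GFPT1 was the main form listed for these cells, with 26.5, 28.6 and 30.8 TPM in CON replicates 1 to 3 and 32.6, 33.9 and 35.6 TPM in the CDCA replicates. The lowest CDCA library stood only 1.06 times above the highest CON library. The log2 fold change of GFPT1 was 0.24 (SE 0.07, 95% interval 0.09 to 0.40, limma FDR 0.020). Its FDR exceeded 0.05 without CON replicate 2 (0.054), without CDCA replicate 2 (0.0504) and without CDCA replicate 3 (0.065), and was 0.011 to 0.29 over all 14 alternatives.

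GFPT2 was barely listed. Its values were 0.01, 0.05 and 0.07 TPM in CON and 0.13, 0.22 and 0.10 TPM in CDCA. The groups did not overlap (two-sided exact permutation p = 0.1, the smallest that 3 libraries against 3 allow), but each value was under 1% of that of GFPT1 in the same library. Such separation held for 33.7% of the tested genes, to which GFPT2 does not belong. With no filter on low values, its log2 fold change on log2(TPM + 1) was 0.14 (SE 0.04, limma FDR 0.084).

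GNPNAT1, which acetylates glucosamine-6-phosphate, had values of 10.6, 10.9 and 8.87 TPM in the CON libraries and of 14.6, 13.7 and 16.2 TPM in the CDCA libraries. CON replicate 3 was the lowest library and CDCA replicate 3 the highest. The ratio of the group means was 1.46, and the log2 fold change was 0.51 (SE 0.10, 95% interval 0.28 to 0.74, limma FDR 0.0045). Nearly all of this lay in row 1, which held at least 96.0% of the gene's TPM in each library.

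PGM3, the phosphomutase that moves the phosphate of GlcNAc-6-phosphate to the 1 position, differed by a similar margin to GFPT1. The CON libraries held 27.97, 29.5 and 23.2 TPM and the CDCA libraries 33.4, 33.8 and 33.6 TPM. The CDCA libraries were close together, whereas CON replicate 3 lay below the other CON libraries. The log2 fold change was 0.32 (SE 0.09, 95% interval 0.11 to 0.53, limma FDR 0.021). The FDR was over 0.05 with CDCA replicate 1 (0.053), 2 (0.057) or 3 (0.056) left out, and over all 14 alternatives it lay between 0.012 and 0.14.

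UAP1 makes UDP-GlcNAc itself, by joining GlcNAc-1-phosphate to UTP, and had the largest log2 fold change among the pathway enzymes tested, by gene sums. The CON libraries held 34.3, 33.3 and 31.9 TPM of it and the CDCA libraries 48.1, 52.8 and 51.2 TPM. The lowest CDCA library was 1.40 times the highest CON library. The log2 fold change was 0.60 (SE 0.05, 95% interval 0.48 to 0.72, limma FDR 0.00014), under the size needed for a call.

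The UAP1 rows differed between the groups by unequal ratios, although by like amounts in TPM, a comparison chosen after their values were seen. Row 1 held 27.1, 26.9 and 24.6 TPM with PBS against 30.5, 34.9 and 31.8 TPM with CDCA, and the ratio of the means was 1.23. Row 2 held 3.73, 3.61 and 3.59 TPM with PBS against 9.39, 8.70 and 9.59 TPM with CDCA (ratio 2.53). For row 3 these values were 3.42, 2.72 and 3.65 TPM and 8.22, 9.24 and 9.89 TPM (ratio 2.79). In each of the 3 rows the CDCA libraries lay above the CON libraries, as in 30.1% of all rows tested. Fitted as single rows among the 12205 rows with a mean of at least 1 TPM, rows 2 and 3 were called higher, against 4.00% of these rows (log2 fold changes 1.14 and 1.25, limma FDR 0.00011 and 0.00041). Row 1 had a log2 fold change of 0.29 (limma FDR 0.016) and was not called. Row 1 held 79.1%, 81.0% and 77.3% of the UAP1 TPM in CON and 63.4%, 66.0% and 62.0% in CDCA. The difference in this share was -15.3 percentage points, without overlap of the groups (two-sided exact permutation p = 0.1, the smallest possible). It lay between -16.4 and -14.4 points when single libraries were left out. With row 1 alone in place of the gene sum, the log2 fold change of UAP1 was 0.29, below that of GNPNAT1 on the same basis (0.51).

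**Figure D2:**
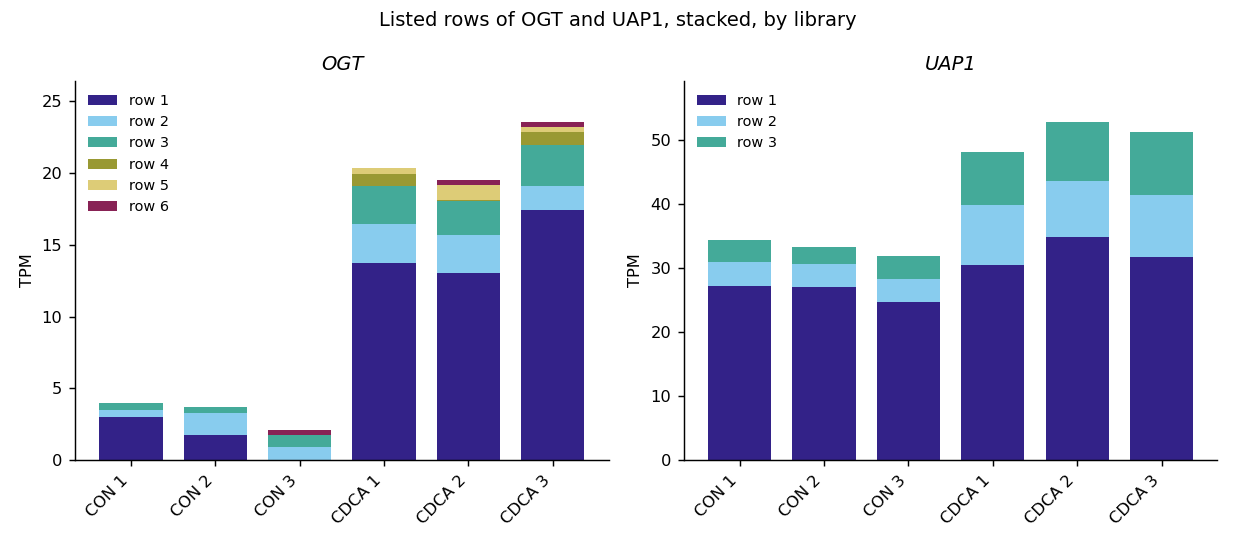
TPM (y axis) of the listed rows of OGT (left, 6 rows) and UAP1 (right, 3 rows), stacked for each of the 6 libraries (x axis). In UAP1, the ratio of CDCA to CON is 2.53 and 2.79 in rows 2 and 3 against 1.23 in row 1, and in OGT, row 1 makes up most of each CDCA bar, at 13.0 to 17.4 TPM, and is listed at 0 in CON replicate 3.

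OGT had the largest change of the 7 genes. The CON libraries held 3.95, 3.71 and 2.13 TPM of OGT, and the CDCA libraries 20.4, 19.5 and 23.6 TPM. The lowest CDCA library stood 4.94 times above the highest CON library, and the ratio of the group means was 6.48. The log2 fold change was 2.40 (SE 0.18, 95% interval 1.97 to 2.84, limma FDR 8.2e-05), which ranked 26 from the largest rise among the 8708 tested genes. OGT was called higher under each of the 14 alternatives, with log2 fold changes of 2.19 without CON replicate 3 to 2.81 with its highest row in place of the sum.

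Most of the difference lay in row 1, whose mean was 1.59 TPM in CON and 14.7 TPM in CDCA. Row 1 had 3.01, 1.75 and 0 TPM in CON replicates 1 to 3 and 13.7, 13.0 and 17.4 TPM in the CDCA replicates. Row 2 had 0.49, 1.56 and 0.90 TPM in the CON replicates and 2.73, 2.66 and 1.67 TPM in the CDCA replicates. Row 3 had 0.45, 0.40 and 0.85 TPM in the CON replicates and 2.69, 2.32 and 2.83 TPM in the CDCA replicates. In each of these 3 rows the lowest CDCA library was above the highest CON library, by a narrow margin in row 2. Of all tested rows, 30.1% were separated in this way. Fitted as single rows, row 1 was called higher (log2 fold change 2.81, SE 0.49, limma FDR 0.0049), as was row 3 (1.21, SE 0.16, limma FDR 0.0016), against 4.00% of all tested rows. Rows 2 and 3, with CON means of 0.98 and 0.57 TPM, reached the mean of 1 TPM only through the CDCA libraries. For rows 2 and 3, the shares of all tested rows are therefore no support. Row 2 (log2 fold change 0.78, SE 0.24, limma FDR 0.043) stayed below the size for a call, and its FDR was over 0.05 in 7 of 9 alternatives (0.025 to 0.12 over all 9). With a pseudocount of 0.1 TPM, the log2 fold change was 1.27 for row 2 (limma FDR 0.053) and 2.08 for row 3. Rows 4 and 5 were listed at 0 in all CON libraries. In CDCA they stood at 0.84, 0.11 and 0.95 TPM and at 0.40, 1.07 and 0.36 TPM, and their means were under 1 TPM. With no filter on low values, both had a log2 fold change of 0.66 (limma FDR 0.15 and 0.082). Row 6 was at or below 0.38 TPM in each library, in no order by group.

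The CON libraries differed in which OGT row they listed. Row 1 held 76.2% of the OGT TPM in CON replicate 1, 47.2% in replicate 2 and 0% in replicate 3, where rows 2 and 3 held 42.3% and 39.9%. In the CDCA libraries it held 67.3%, 66.8% and 73.9%. The groups overlapped for this share (exact permutation test, two-sided, p = 0.4, where 3 libraries against 3 cannot go below 0.1), so a shift in the share of row 1 was neither shown nor excluded. The mean difference in this share was 28.2 percentage points and ranged from 7.63 points without CON replicate 3 to 45.7 points without CON replicate 1. The fitted change of row 1 also leaned on that library and on the pseudocount: its log2 fold change was 2.23 without CON replicate 3 and 4.14 with a pseudocount of 0.1 TPM.

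OGA, which removes O-GlcNAc, was near the floor of the listed values in both groups. The CON libraries held 0.39, 1.04 and 0.09 TPM of OGA and the CDCA libraries 0.48, 0.84 and 0.68 TPM. The CON libraries spanned a wider range than the CDCA libraries and enclosed them (exact permutation test, two-sided, p = 0.6). Of its 7 rows, 3 were listed at 0 in all libraries, and row 1 held at least 50% of the total in each library. With no filter on low values, the log2 fold change of OGA on log2(TPM + 1) was 0.19 (95% interval -0.39 to 0.77, limma FDR 0.65). Both a fall and a rise lie within that interval, and this scale understates fold changes at such low levels.

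The listed RNA levels of the writer and the eraser of the mark were also compared per library, which does not measure the enzymes or the mark. After 0.1 TPM was added to both, the log2 ratio of OGT to OGA was 3.05, 1.74 and 3.55 in CON and 5.14, 4.38 and 4.92 in CDCA. The groups did not overlap, and the mean difference was 2.04 (two-sided exact permutation p = 0.1, the smallest possible). Leaving out single libraries gave differences from 1.52 to 2.42. The plain ratio of OGT to OGA overlapped, at 10.1, 3.57 and 23.7 in CON and 42.4, 23.3 and 34.7 in CDCA. CON replicate 3, the library with the lowest OGA value, stood above CDCA replicate 2.

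By the TPM of the listed rows, the order of the levels changed at a single place. In CON, UAP1 was highest and was followed by GFPT1 and PGM3, whose libraries overlapped, then by GNPNAT1, OGT, OGA and GFPT2. In CDCA, OGT, at 19.5 to 23.6 TPM, stood above GNPNAT1, at 13.7 to 16.2 TPM, whereas in CON it had been below it, at 2.13 to 3.95 TPM against 8.87 to 10.9 TPM. GFPT1 and PGM3 also overlapped in CDCA. The other neighbours in this order did not overlap in either group, although OGA and GFPT2 in CON were apart by only 0.02 TPM, between 0.09 and 0.07 TPM.

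The share of mRNA from mitochondrial DNA moved with the groups. These 13 genes held 13.8% to 15.0% of the sum of the listed rows in the CON libraries and 2.90% to 3.45% in the CDCA libraries. Of a full library of 1000000 TPM they held 4.95% to 5.50% and 1.05% to 1.23%. With these genes taken out of the full total, an alternative added after the data were seen, the median log2 fold change of all tested genes went from 0.05 to -0.0031. All 5 tested genes then still had an FDR under 0.05, with log2 fold changes of 2.35 for OGT, 0.54 for UAP1, 0.45 for GNPNAT1, 0.26 for PGM3 (limma FDR 0.046) and 0.18 for GFPT1 (limma FDR 0.0497). Scaling instead to the sum of the listed rows without these genes changed both the total and its members, and the median of all tested genes was then -0.08. On that scale the log2 fold change was 0.09 for GFPT1 (limma FDR 0.29) and 0.17 for PGM3 (limma FDR 0.14), and OGT (2.27), UAP1 (0.45) and GNPNAT1 (0.37) kept an FDR under 0.05. Scaling multiplies all genes of a library by the same factor. Relative to the median of all tested genes, the 5 changes were therefore bound to move little between TPM as listed and this last scale. They were 0.19 and 0.18 for GFPT1, 0.27 and 0.25 for PGM3, 0.46 and 0.45 for GNPNAT1, 0.55 and 0.53 for UAP1, and 2.35 under both for OGT.

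**Figure D3:**
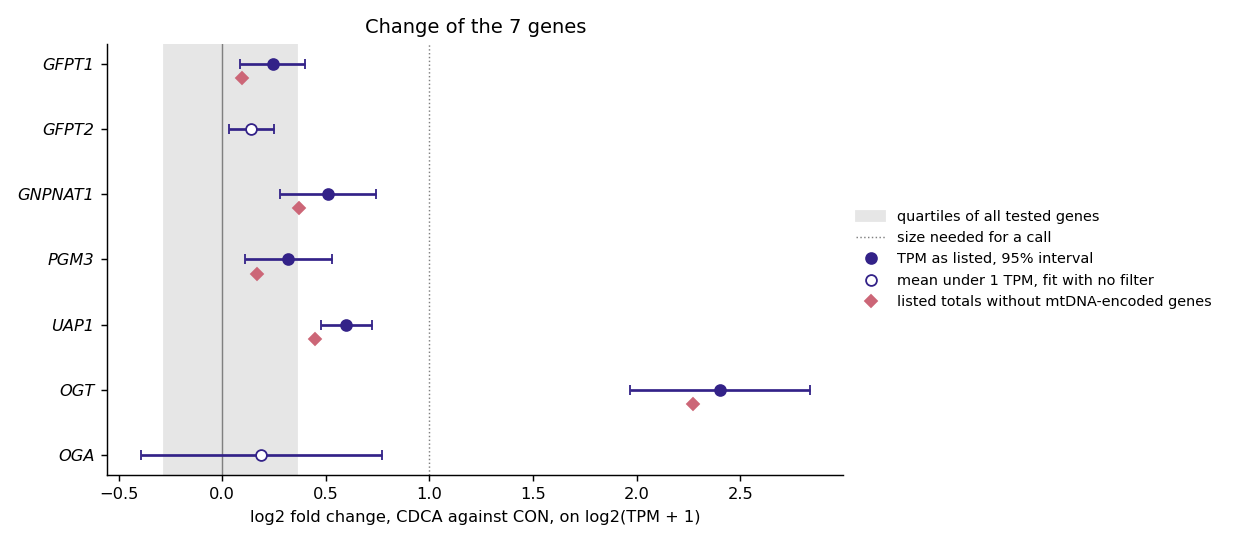
Log2 fold change of each gene in CDCA against CON on log2(TPM + 1) (x axis) with its 95% interval from limma. Open circles mark the 2 genes under 1 TPM, diamonds the fit scaled to the listed rows without the mtDNA-encoded genes, and the grey band the quartiles of all tested genes (-0.28 and 0.36). OGT stands at 2.40, past the dotted line at 1, and the other genes lie between 0.14 and 0.60.

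Genes around the pathway were taken from lists written from general knowledge. Of 21 enzymes and carriers that feed, drain or salvage hexosamines, 19 were found and 15 tested. At an FDR under 0.05, 7 of the 15 rose, against 29.3% of all tested genes, and 5 fell, against 23.9%. Of these, 1 was called higher, against 3.51% of all tested genes, and 1 lower, against 3.90%. Their median log2 fold change was -0.03. SLC1A5, a glutamine importer, rose from 78.9, 88.6 and 85.3 TPM in CON to 187, 192 and 193 TPM in CDCA (log2 fold change 1.17, limma FDR 9.8e-06). HK2, a hexokinase that traps glucose as glucose-6-phosphate, fell from 48.5, 48.8 and 45.3 TPM to 15.4, 15.1 and 15.9 TPM (log2 fold change -1.56, limma FDR 3.7e-06). For both genes the groups were far apart, and both were called under all 14 alternatives.

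None of the other tested genes of this list was called with TPM as listed, and those that follow were chosen after their values were seen. The limma FDR was at most 0.011 where none is given. Upstream of the branch point, the hexokinase HK1 (log2 fold change -0.74) and the isomerase GPI (-0.45) fell. The phosphomutase PGM2 had a log2 fold change of -0.17 (limma FDR 0.046). Among enzymes of salvage and turnover, NAGK, which phosphorylates free GlcNAc, rose by 0.63. AMDHD2, which deacetylates GlcNAc-6-phosphate and so runs against the pathway, rose by 0.75, the deaminase GNPDA2 by 0.42 and the epimerase RENBP by 0.36 (limma FDR 0.041). In the sialic acid branch, GNE, which draws on UDP-GlcNAc, rose from a mean of 6.37 TPM (SD 0.53, n = 3) to 12.9 TPM (SD 0.37, n = 3). GNE had a log2 fold change of 0.92, and was called in 2 of 14 alternatives (1.01 with a pseudocount of 0.1 TPM and 1.00 with the listed values rescaled to 1000000). CMAS, which activates sialic acid, rose by 0.71. The sialic acid synthase NANS, by far the most abundant of this branch, stood at 252 and 248 TPM, with a log2 fold change of -0.03 (limma FDR 0.68). Its sign turned in 2 alternatives, and on the scale of the listed rows without the mtDNA-encoded genes it was -0.18 (limma FDR 0.017). Of the carriers, SLC35A3, which brings UDP-GlcNAc into the Golgi, fell (-0.47, limma FDR 0.028), but with its highest row in place of the sum its log2 fold change was -0.14 (limma FDR 0.46). The sialic acid exporter of lysosomes SLC17A5 had a log2 fold change of -0.33 (limma FDR 0.34), with -0.13 without CDCA replicate 3 and -0.52 without CDCA replicate 1, and its mean was under 1 TPM without CON replicate 3. The changes of PGM2, RENBP and SLC35A3 kept an FDR under 0.05 in 6, 4 and 9 of 14 alternatives. UAP1L1, a relative of UAP1, was listed at 0 in all libraries.

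Of 30 transferases that use UDP-GlcNAc, all were found and 19 tested. At an FDR under 0.05, 4 of the 19 rose and 6 fell, near the 29.3% and 23.9% of all tested genes, and 1 was called in each direction, against 3.51% and 3.90%. Their median log2 fold change was -0.22. DPAGT1 starts the lipid-linked precursor of N-glycans, and the CON libraries held 8.70, 9.01 and 9.99 TPM and the CDCA libraries 20.2, 20.6 and 19.2 TPM of it. It was the only gene of this list called higher (log2 fold change 1.04, limma FDR 4.2e-05). It was not called when the mtDNA-encoded genes were left out of the listed or the full totals (0.90 and 0.98) or when libraries were scaled to the same median ratio. EXTL3, which takes part in heparan sulfate synthesis, was the only one called lower, from 9.21, 9.85 and 9.54 TPM to 5.68, 2.25 and 3.96 TPM (log2 fold change -1.15, limma FDR 0.0071). Without CDCA replicate 2 its log2 fold change was -0.87, under the limit.

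Of 10 proteins known to bind or guide OGT, 3 were tested. At an FDR under 0.05, 1 rose and 2 fell, against 29.3% and 23.9% of all tested genes, and none was called, against 3.51% higher and 3.90% lower. TRAK1, an adaptor of mitochondrial motors, had a log2 fold change of -0.48 (limma FDR 0.0073, but 0.091 with its highest row in place of the sum) and ASXL1, part of the BAP1 complex, one of -0.46 (limma FDR 0.0015). PPP1R12A, a targeting subunit of a myosin phosphatase, had one of 0.18 (limma FDR 0.037), and its FDR was 0.037 to 0.66 over the alternatives, under 0.05 in 3 of 14. HCFC1, a partner and substrate of OGT, was listed at 0 in 4 libraries and at 0.08 TPM in CON replicate 3 and CDCA replicate 3. Of 3 stress-response factors known to act on hexosamine genes, XBP1 rose from a mean of 88.7 TPM (SD 0.72, n = 3) to 154 TPM (SD 3.1, n = 3), with a log2 fold change of 0.79 (limma FDR 9.8e-06). ATF6 had a log2 fold change of 0.87 (limma FDR 0.0061). Neither was called, although ATF6 was at 1.01 without CDCA replicate 2. ATF4 was listed at or below 0.04 TPM in each library and was not tested.

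**Figure D4:**
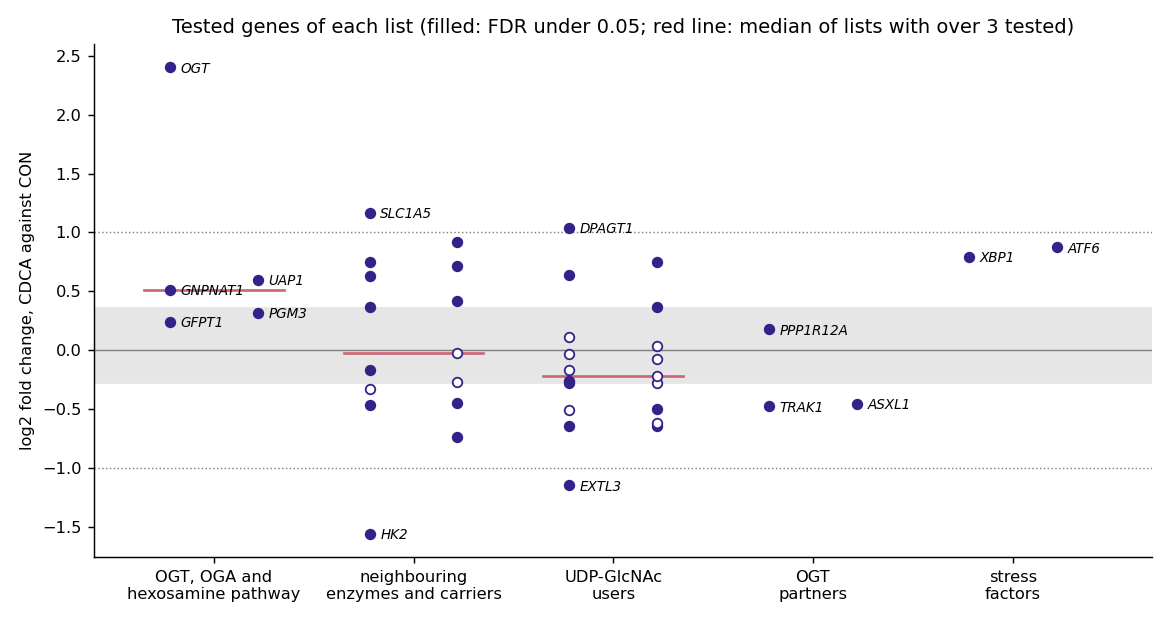
Log2 fold change in CDCA against CON (y axis) of the tested genes of 5 lists (x axis); filled points have an FDR under 0.05, dotted lines mark the limit for a call, and the grey band holds the quartiles of all tested genes. The genes of the hexosamine pathway and OGT lie above 0, from 0.24 to 2.40, while the neighbouring genes and the UDP-GlcNAc users spread to both sides, with medians of -0.03 and -0.22.

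Among tested genes with a symbol, the 5 whose log2(TPM + 1) followed OGT most closely over the 6 libraries were SESTD1, MARS1, CHMP2B, WASHC5 and UBE2J1. Pearson's r was 0.999 to 1.000, given as a description without a test. The choice by likeness fixes the gap between CDCA and CON in these genes. Their changes were smaller than that of OGT: SESTD1 went from 6.96, 6.91 and 6.04 TPM to 11.1, 10.8 and 11.3 TPM. The 5 closest to GFPT1 were YRDC, MED8, SETD3, SPINT2 and SNAPIN, with r of 0.987 to 0.994. These genes share with OGT and GFPT1 the gap between the 2 groups of libraries. Those closest to GFPT1 also share its rise from replicate 1 to replicate 3 within each group. Those closest to OGT are, like OGT, lowest in CON replicate 3.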

How the data were processed

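RNA-seq of 3 CON and 3 CDCA libraries was used, grouped by the sample labels. The authors estimated expression by RSEM, and the deposited table gives TPM to 2 decimals, without counts. The submitters' processing notes name Bowtie 0.12.2 and the mouse build mm10, although the gene IDs are Ensembl pig IDs; the annotation release is not given in the sources used here, and no coordinates are printed. Gene symbols were looked up by Ensembl ID and compared with the deposited names, which were the same for all 7 genes.

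TPM were summed per gene ID. CDCA and CON were compared with limma 3.58.1 in R 4.3.3 (lmFit, then eBayes with a trend over mean expression) on log2(TPM + 1) for genes, and separately for rows, with a mean of at least 1 TPM. The steps were tested on simulated data. The authors used edgeR, which needs counts. Shares and ratios were compared by exact permutation tests. The alternatives changed the pseudocount, the filter, the scaling or the sum over rows, added a replicate block, or left out single libraries. The genes and lists were chosen with earlier results of these data known; genes named from a list are those called and the largest rise and fall, unless said otherwise. Promoter and protein sequences were not used here. A gene of the lists is not reported here.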

Additional observations from a re-analysis of the deposited data

How the results depend on the processing

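OGT kept its call, and GNPNAT1 and UAP1 an FDR under 0.05, in all 14 alternatives to the gene fit; GFPT1 and PGM3 kept theirs in 9 each. Of the 5 genes with an FDR under 0.05, 3 remained when libraries were scaled to the sum of the listed rows without the mtDNA-encoded genes, and 3 to 5 when single libraries were left out, 3 both without CDCA replicate 2 and without CDCA replicate 3. With a pseudocount of 0.1 TPM, 509 genes were called higher and 505 lower, against 306 and 340 with 1 TPM, and 779 rows higher and 697 lower, against 488 and 485. With the listed TPM rescaled to 1000000, 523 genes were called higher and 481 lower. On the scale of the listed rows without the mtDNA-encoded genes, 221 genes were called higher and 449 lower, against 306 and 340 with TPM as listed and 268 and 372 with these genes taken out of the full total. The log2 fold change of NANS was -0.03, but 0.054 with its highest row in place of the sum, -0.18 (FDR 0.017) on the scale of the listed rows without the mtDNA-encoded genes, and from -0.068 to 0.011 when single libraries were left out (0.011 without CON replicate 1). The log2 ratio of GFPT1 to GFPT2 differed by -0.55 between CDCA and CON after 0.1 TPM was added and by 0.10 after 1 TPM was added; GFPT2 lay at or below 0.22 TPM in each library. Same-numbered libraries did not deviate together (r of -0.09 to -0.04 across genes), and no CON library correlated best with its own number. With the replicate number as a replicate block, 309 genes were called higher and 343 lower; of the 5 tested genes none lost its FDR, whereas row 2 of OGT (0.059) and the list genes PGM2, RENBP and PPP1R12A did. The number of reads behind each gene's TPM is not listed, so the reliability of values under 1 TPM, those of OGA and GFPT2 among them, could not be judged from the listed values. The paper names OGT and OGA in its RT-qPCR check and reports trends like those of RNA-seq for all genes checked. Those RT-qPCR values were not used here.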
